A study of Rattus norvegicus with 71 samples.

Results

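The lecticans, tenascins, link proteins and reelin are the genes of the neural extracellular matrix described here. They were taken by symbol from a list of 10 (Acan, Bcan, Ncan, Vcan, Tnc, Tnr, Hapln1, Hapln2, Hapln4 and Reln), and 9 of the 10 were among the 17494 genes of the counts table. Acan, which encodes aggrecan, was not analysed here. The samples were coronal slices of the PND2 rat (Sprague-Dawley) brain that hold the hippocampus with cortical and subcortical structures, as the sample labels give it, whereas the text of the series names frontal cortex and hypothalamus. Each library came from 1 animal, and the 71 animals (35 male, 36 female) were offspring of 27 dams. The control dams, injected with saline in adjuvant, bore 24 of the animals in 7 litters. The other 20 dams were immunised, in adjuvant as well, with peptides of the antigens of 4 maternal autoantibody patterns, and their offspring were exposed in utero. These were 8 animals in 4 litters for CRMP1+CRMP2, 25 in 9 litters for LDHA/B+CRMP1+STIP1, 6 in 3 litters for CRMP1+GDA and 8 in 4 litters for STIP1+NSE. The genotype label is WT for the animals of every group. By their title series, 28 libraries (12 controls and 16 LDHA/B+CRMP1+STIP1 animals) formed batch 1 and 43 formed batch 2, which holds the other 12 controls and every animal of the remaining 3 patterns. Dams were immunised, so littermates share an exposure, and tests over animals measure the spread between animals rather than between dams.

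Neurons and glia lie in a matrix that is built on hyaluronan, a long sugar chain. Lecticans (aggrecan, brevican, neurocan and versican) are chondroitin sulfate proteoglycans that bind hyaluronan at one end and tenascins at the other, and link proteins (the Hapln family) hold the lectican on the chain. Around birth the brain's matrix is loose and rich in neurocan, versican and tenascin-C. Aggrecan, brevican, tenascin-R, Hapln1 and Hapln4 are known from the perineuronal nets that condense around neurons later in postnatal life, and Hapln2 from the nodes of Ranvier of myelinated axons. Reelin is a large secreted matrix glycoprotein, made in the newborn cortex and hippocampus by Cajal-Retzius cells, that guides the layering of neurons through the receptors Vldlr and Lrp8 and the adaptor Dab1.

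In the build used for counting (rn7), each of 3 link protein genes lies beside a lectican gene. Hapln4 (chromosome 16, 19333106 to 19341243, minus strand) lies 4.7 kb from Ncan (chromosome 16, 19301969 to 19328436, plus strand), and the genes run towards each other, end to end. Hapln2 (chromosome 2, 173491156 to 173496586) lies 23.7 kb from Bcan (chromosome 2, 173454480 to 173467460), both on the minus strand. Hapln1 (chromosome 2, 20631640 to 20693779, plus strand) lies 67.9 kb from Vcan (chromosome 2, 20761718 to 20860637, minus strand). Tnc is on chromosome 5 (77376440 to 77436038, minus strand), Tnr on chromosome 13 (72091585 to 72167641, plus strand) and Reln on chromosome 4 (12736299 to 13162814, plus strand). The annotated exons sum to 12368 bases for Vcan, 11462 for Reln, 6429 for Tnr, 6155 for Tnc, 5201 for Ncan, 3840 for Bcan, 3687 for Hapln4, 2154 for Hapln1 and 1384 for Hapln2. The spans of these neighbours do not overlap, so no position was counted for both a lectican and its link protein.

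The promoters of the 4 genes whose levels moved together most closely across litters (Vcan, Reln, Tnc and Ncan) and of Hapln4, the neighbour of Ncan that did not follow it, are printed for comparison. All 10 listed genes had a RefSeq promoter in build GRCr8, which is another build than that of the counts. Each line gives the 250 bases before the annotated start site, 5′ to 3′ on the gene's own strand, at chr2:22595956-22596205 for Vcan (minus strand), chr4:13628318-13628567 for Reln (plus), chr5:82476132-82476381 for Tnc (minus), chr16:19335657-19335906 for Ncan (plus) and chr16:19375174-19375423 for Hapln4 (minus). Capitals mark matches on either strand to 4 motifs. The core of the TATA box was searched as TATAA. The GC box was searched as GGGCGG. The E-box was searched as CACGTG. The octamer was searched as ATGCAAAT. No other overlap than the one named in the next paragraph occurred between matches.
Vcan: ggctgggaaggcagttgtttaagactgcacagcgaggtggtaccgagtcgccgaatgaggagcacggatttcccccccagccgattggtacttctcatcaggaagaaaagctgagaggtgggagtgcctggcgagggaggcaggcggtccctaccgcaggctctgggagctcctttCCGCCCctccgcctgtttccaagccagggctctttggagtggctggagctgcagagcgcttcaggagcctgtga
Reln: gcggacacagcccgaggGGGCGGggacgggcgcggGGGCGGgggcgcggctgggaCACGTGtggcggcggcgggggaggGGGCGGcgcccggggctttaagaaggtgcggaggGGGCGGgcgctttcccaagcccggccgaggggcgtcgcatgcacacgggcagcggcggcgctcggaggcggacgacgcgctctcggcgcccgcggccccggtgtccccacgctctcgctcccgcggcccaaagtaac
Tnc: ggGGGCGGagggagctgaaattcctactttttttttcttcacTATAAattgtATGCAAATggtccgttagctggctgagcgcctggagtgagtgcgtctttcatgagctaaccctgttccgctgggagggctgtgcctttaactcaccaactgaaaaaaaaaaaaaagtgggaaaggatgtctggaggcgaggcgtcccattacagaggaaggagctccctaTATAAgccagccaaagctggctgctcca
Ncan: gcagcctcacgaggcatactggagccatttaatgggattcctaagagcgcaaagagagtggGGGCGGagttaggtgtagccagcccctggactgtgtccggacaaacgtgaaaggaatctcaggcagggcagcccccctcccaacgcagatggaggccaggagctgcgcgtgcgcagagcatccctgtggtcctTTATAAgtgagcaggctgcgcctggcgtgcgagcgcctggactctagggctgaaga
Hapln4: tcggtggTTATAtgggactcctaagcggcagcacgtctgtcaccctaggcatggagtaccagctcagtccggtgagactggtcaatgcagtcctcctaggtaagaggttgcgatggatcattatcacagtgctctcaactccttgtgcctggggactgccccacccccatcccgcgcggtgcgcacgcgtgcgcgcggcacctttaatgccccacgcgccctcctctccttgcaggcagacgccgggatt

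TATAA occurred in Tnc at positions -28 and -208, counted back from the start site, and in Ncan at position -55, where a match on the other strand overlaps it from -56. It did not occur in the windows of Vcan and Reln, whereas Hapln4 held it at -243. RefSeq lists a further start of Vcan, and the window before that one holds TATAA at -32. Of 33469 promoter windows of this length, 24.0% held the TATA box core, 30.5% the GC box, 5.59% the E-box and 1.56% the octamer. The GC box occurred at 4 positions in Reln and at 1 each in Vcan, Tnc and Ncan. The octamer was found in Tnc, at -198, and the E-box in Reln, at -195. The G and C share was 80.0% in Reln, 61.6% in Vcan, 61.2% in Hapln4, 60.8% in Ncan and 49.6% in Tnc, and the median over all windows was 51.2%. No motif of the 4 was shared by all 5 windows, and a match of letters is not evidence that a factor binds there.

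Library totals were between 24880182 and 36234952 counts with a median of 28439195. Counts were scaled to CPM (counts scaled to a common library size) with library sizes adjusted by the TMM method, and for comparison between genes also divided by exon length in kilobases (RPKM). A low level in bulk tissue cannot distinguish fewer expressing cells from less RNA per cell. In the slices the median RPKM was 136.5 for Ncan (neurocan), 66.7 for Bcan (brevican), 42.5 for Tnc (tenascin-C), 25.5 for Reln, 18.2 for Vcan (versican), 11.4 for Tnr (tenascin-R), 2.11 for Hapln1, 0.393 for Hapln4 and 0.0598 for Hapln2. On this per-length scale Ncan exceeded 96.6% of all 17494 genes, Bcan 91.7%, Tnc 86.3%, Reln 77.4%, Vcan 70.7% and Tnr 61.8%. Hapln1 exceeded 40.3%, Hapln4 29.9% and Hapln2 22.8%.

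**Figure D1:**
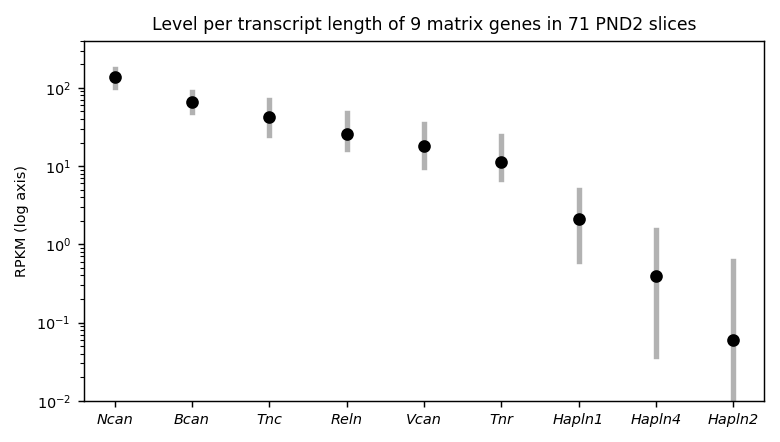
Median (points) and range over 71 slices (grey bars) of the RPKM of 9 matrix genes, on a log axis from 0.01; the bar of Hapln2 runs to 0. The lecticans, tenascins and reelin sit above 6 RPKM in every slice and the 3 link proteins below 5 RPKM.

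The order of neighbouring genes held in most slices. Ncan lay between 103 and 175 RPKM and Bcan between 49.1 and 87.7, with no overlap, and the ratio of Ncan to Bcan had a median of 2.08. Bcan was above Tnc in 71 of 71 slices, although their ranges overlapped. Tnc was above Reln in 69 slices, Reln above Vcan in 68 and Vcan above Tnr in 68, with overlapping ranges in each case. Below Tnr (6.89 to 24.0 RPKM) came a gap to Hapln1 (0.618 to 4.98 RPKM). In every slice the 3 lecticans measured thus lay above the 3 link proteins that bind the same hyaluronan chain. Vcan, the lowest lectican by median, was at 9.60 RPKM or more.

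Hapln2 was at the edge of detection. It had 0 counts in 14 of 71 slices and at most 21 counts in the others, with a highest level of 0.84 CPM. A count of 0 allowed a level of up to 0.0809 to 0.122 CPM, depending on the library (3 counts, counting error only). Most low counts in the table are even, and where a fragment adds 2 counts the limit is higher by that factor. It never passed 1 CPM and was not tested in any comparison, so 8 genes were tested. Hapln4 had between 4 and 166 counts per library and Hapln1 between 35 and 275, against 1232 or more for the other tested members.

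The animals of a group differed from one another most for the link proteins. Within group and batch, the SD of log2 CPM was 0.94 for Hapln4 and 0.54 for Hapln1, and 0.40 for Vcan, 0.34 for Reln, 0.31 for Tnr, 0.27 for Tnc, 0.18 for Bcan and 0.18 for Ncan. Of this variance, 75.9% lay between litters for Vcan, 66.8% for Reln, 61.6% for Tnc, 60.7% for Hapln1, 59.5% for Ncan, 53.4% for Bcan, 44.5% for Tnr and 41.04% for Hapln4. Litters took up 20 of the 64 degrees of freedom, or 31.25%, which is the share to set these against, and Hapln4 and Tnr lay nearest to it.

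**Figure D2:**
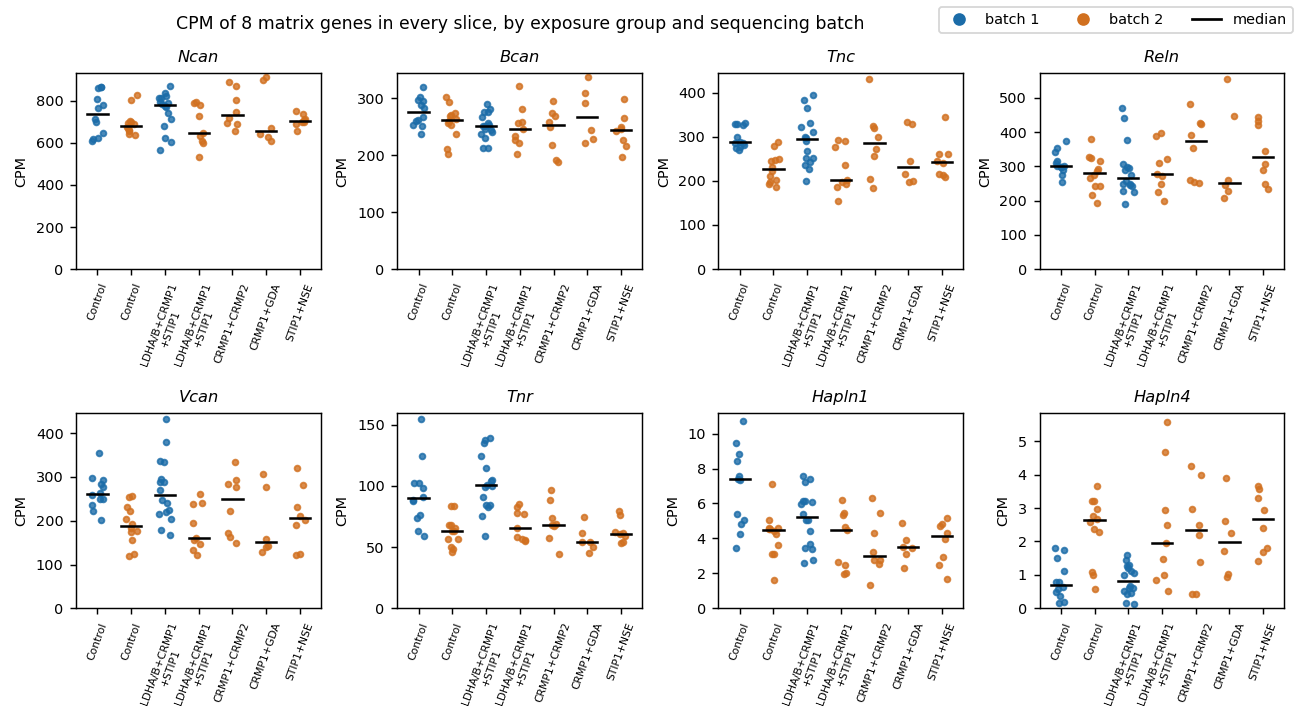
CPM of the 8 tested genes in every slice (points), by group and batch, with the median of each (black lines), on axes from 0. The 12 controls of batch 1 have the higher median for Tnc, Vcan, Tnr and Hapln1 and the lower one for Hapln4, and exposed and control slices of a batch overlap for every gene.

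Most of the calls in these genes lay between control slices of the 2 batches rather than between exposed and control slices. Of the 8 tested, 4 were lower in batch 2 (Tnc, Tnr, Vcan and Hapln1) and 1 was higher (Hapln4), at FDR < 0.1 with sex as a covariate. Among all 12565 genes tested, 41.5% were called in this comparison, 20.2% lower and 21.3% higher in batch 2, so the 5 of 8 called here are to be read against a transcriptome in which a large share of genes differed.

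Tenascin-C, a glycoprotein of immature matrix made by radial glia and astrocytes, was between 270 and 331 CPM in the 12 batch 1 controls (median 288) and between 186 and 288 in the 12 batch 2 controls (median 226). The ranges overlapped between 270 and 288 CPM, and the log2 fold change was -0.37 ± 0.067 (SE, FDR = 0.00011). Tenascin-R, made by cells of the oligodendrocyte lineage and by some neurons, was between 59.3 and 154 CPM in batch 1 (median 89.9) and between 46.2 and 83.8 in batch 2 (median 63.0). It differed by -0.56 ± 0.13 on the log2 scale (FDR = 0.0017), with overlapping ranges.

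Versican, the large lectican of embryonic matrix, was between 201 and 355 CPM in batch 1 controls (median 261) and between 119 and 256 in batch 2 controls (median 188). The log2 fold change was -0.48 ± 0.12 (FDR = 0.0028), and the groups overlapped between 201 and 256 CPM. The other lecticans did not pass the threshold. Neurocan differed by -0.08 ± 0.065 (FDR = 0.36) and brevican by -0.10 ± 0.055 (FDR = 0.15).

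The link proteins Hapln1, a neighbour of Vcan, and Hapln4, a neighbour of Ncan, went in opposite directions. Hapln1 was between 3.45 and 10.7 CPM in batch 1 (median 7.38) and between 1.62 and 7.11 in batch 2 (median 4.48), a log2 fold change of -0.70 ± 0.19 (FDR = 0.0053). Hapln4 was between 0.148 and 1.80 CPM in batch 1 (median 0.707) and between 0.574 and 3.64 in batch 2 (median 2.63), a log2 fold change of 1.56 ± 0.33 (FDR = 0.00073). These are changes at low counts, between 4 and 103 per library for Hapln4. Reelin was between 255 and 375 CPM in batch 1 and between 192 and 380 in batch 2, and did not pass the threshold (-0.14 ± 0.090, FDR = 0.23).

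The calls of Tnc, Tnr and Hapln4 held in each of 16 alternative fits, whereas those of Vcan (FDR = 0.10) and Hapln1 (FDR = 0.16) were lost when counts were summed per litter. Leaving out 1 litter added a call: reelin without litter 9_10 (-0.28, FDR = 0.018), neurocan without IgG1 (-0.14, FDR = 0.096), and brevican without 9_25 (-0.15, FDR = 0.096) or RNA4 (-0.16, FDR = 0.055).

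Genes that build, cut and bind this matrix were listed in 7 groups, and 23 of the 44 tested (52.3%) were called, against 41.5% of all genes. Of 6 tested proteases and inhibitors of lectican cleavage, 5 were higher in batch 2 and none lower, with a median log2 fold change of 0.99 against 0.002 over all genes. Adamts4, an aggrecanase that also cuts brevican, went from a median of 1.29 CPM to 3.83 (1.56 ± 0.19, FDR = 4.3e-07), with no overlap between the 12 controls of each batch. Adamts15 went from 9.80 to 25.7 CPM (1.32 ± 0.19, FDR = 9.0e-06), Adamts1 was higher by 1.37 ± 0.23 (FDR = 4.1e-05), and Adamts5 and Adamts9 were higher by 0.67 and 0.40 on the log2 scale. The call of Adamts9 was lost with the litter as a random effect (adjusted p = 0.27) and with counts summed per litter (0.24). Timp3, the inhibitor of these proteases, did not pass the threshold (0.028 ± 0.12, FDR = 0.88).

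Of 8 tested genes of hyaluronan, 4 were lower in batch 2 and none higher (median -0.13), where 20.2% of all genes were lower. Has3, a hyaluronan synthase, went from a median of 25.3 CPM to 16.9 (-0.58 ± 0.072, FDR = 8.8e-07). Has2, another synthase, the hyaluronan receptor Hmmr and the hyaluronidase Cemip2 fell by 0.45, 0.37 and 0.25 on the log2 scale. These 3 calls were lost with counts summed per litter (adjusted p = 0.22, 0.11 and 0.21), and those of Has2 and Cemip2 also with the litter as a random effect (0.17 and 0.15) and without litter 9_25 (0.11 and 0.13) or RNA4 (0.31 and 0.26).

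In chondroitin sulfate synthesis 5 of 13 tested genes were higher and 2 lower, where 21.3% of all genes were higher and 20.2% lower. The sulfotransferase Chst15, which makes the disulfated E unit, fell by 0.72 (SE 0.089, FDR = 8.9e-07), from a median of 21.8 to 12.8 CPM. The chain initiator Csgalnact1 fell by 0.38, whereas the polymerase subunit Chpf2 and the sulfotransferase Chst11 rose by 0.28 and 0.24, both calls being lost with counts summed per litter (adjusted p = 0.16 for each). Of 5 other chondroitin sulfate proteoglycans, Cspg5 (neuroglycan C) rose by 0.41 (SE 0.049, FDR = 3.5e-07) and Ptprz1 fell by 0.17 (SE 0.074, FDR = 0.078). The call of Ptprz1 was lost in 8 of 16 alternative fits, with adjusted p up to 0.22. Of the 2 further tenascin and link protein genes tested, the tenascin Tnn fell by 1.04 (SE 0.18, FDR = 9.3e-05) and Hapln3 did not pass the threshold (-0.092 ± 0.21). Among 4 matrix receptors tested, Ptprs, a receptor of chondroitin sulfate chains, rose by 0.23, a call lost with counts summed per litter (adjusted p = 0.15). In the reelin pathway, 3 of 6 tested genes fell (Vldlr by 0.31, Dab1 by 0.25 and Fyn by 0.11) and none rose. Of all genes tested 41.5% were called, and 20.2% of all genes tested were called lower in batch 2. With the litter as a random effect Dab1 and Fyn lost the call (adjusted p = 0.11 for each), and Fyn also with counts summed per litter (0.27).

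**Figure D3:**
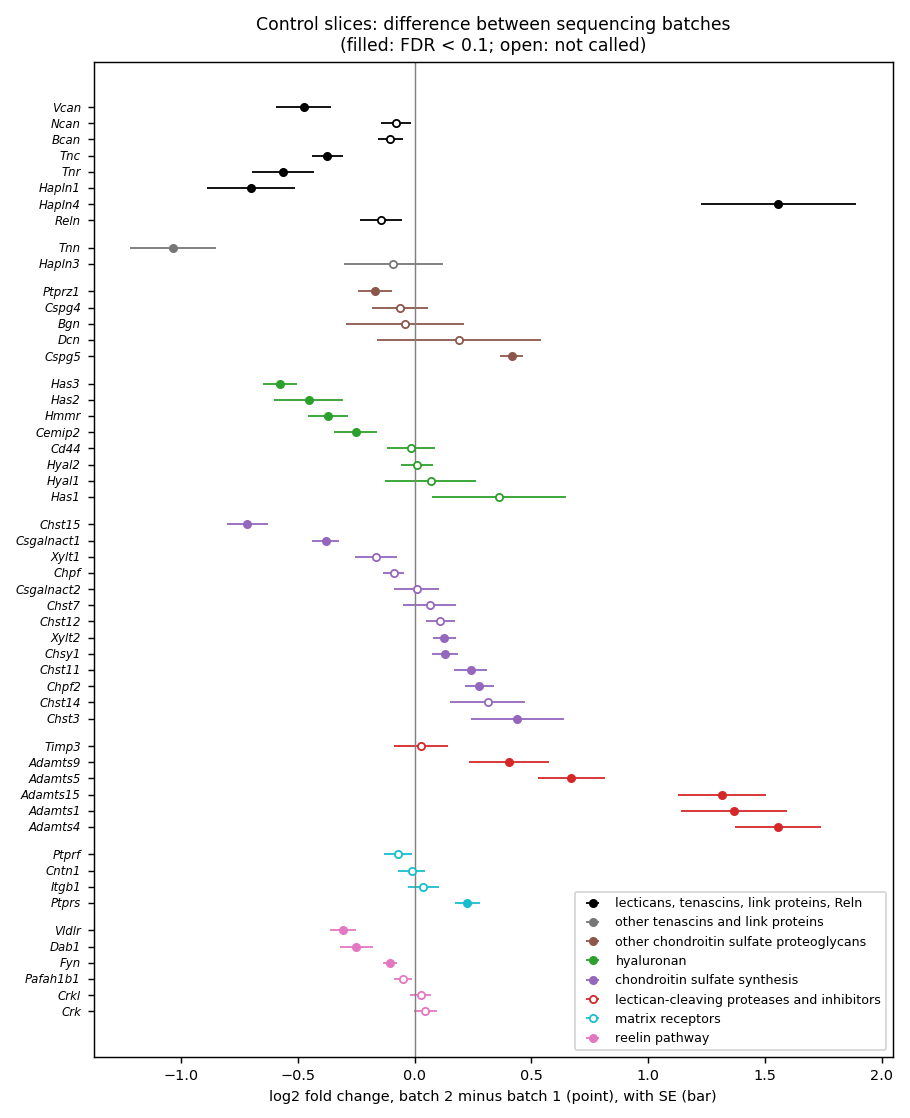
Log2 fold change of batch 2 against batch 1 in control slices (points, with SE bars) for the 8 tested genes in black and for 7 lists of related genes in colour; filled points passed FDR < 0.1. Hapln4 and 5 proteases stand to the right and Tnn, Chst15, Hapln1 and Has3 to the left.

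What the slices held differed between the batches as well. All 5 thalamus markers were higher in batch 2 controls, and their summed level was 48.9 to 125 CPM in batch 1 and 269 to 944 CPM in batch 2. All 4 choroid plexus markers were higher (1.56 to 108 CPM against 123 to 2756). So were all 4 tested of 6 listed markers of Cajal-Retzius cells (7.08 to 37.97 CPM against 23.6 to 94.2). Reelin, made by the same cells, was not called (-0.14 ± 0.090, FDR = 0.23), so these markers alone do not establish a difference in such cells. Of 5 markers of cortical and hippocampal neurons, 4 were lower and 1 higher (1013 to 1740 CPM against 595 to 950). Of 5 markers of radial glia and astrocytes, 2 were higher and 1 lower, and 0 of 4 markers of oligodendrocyte precursors were called. Among all genes tested, 41.5% were called in this comparison, 20.2% lower and 21.3% higher in batch 2. The part of these tissue differences in the batch differences of the matrix genes was not tested, and batch and slice content cannot be told apart in the controls. Every library expressed the cortical and hippocampal neuron markers (at least 452 CPM in sum), and those of thalamus were at 48.9 CPM or more.

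The general exposure contrast, which set the 47 exposed against the 24 control animals with 1 surrogate variable, called none of the 8 genes. By edgeR 0.0321% of 12477 genes were called, and 10.3% had an unadjusted p under 0.05. Of the 8 genes 2 had such a p, Hapln1 (-0.35 ± 0.14, p = 0.013, FDR = 0.37) and Bcan (-0.09 ± 0.044, p = 0.044, FDR = 0.47). Hapln1 was between 1.33 and 7.59 CPM in the exposed (median 4.30) and between 1.62 and 10.7 in the controls (median 4.70), with nearly complete overlap. The other 6 had log2 fold changes between 0.032 (Ncan) and 0.086 (Reln), with SEs between 0.044 and 0.17. DESeq2 and limma with the litter as a random effect called none of the 8 either.

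Reelin in CRMP1+CRMP2 was the single call in a comparison with controls. Its log2 fold change was 0.31 ± 0.11 (FDR = 0.093), where 11.4% of 12691 genes were called. The 8 exposed animals had 354 and 259 CPM in litter 9_1, 426 and 482 in litter 9_6, 393 and 425 in litter 9_11, and 253 and 255 in litter 9_16. The controls were between 192 and 380 CPM with a median of 297. Animals of litters 9_6 and 9_11 thus lay above all 24 controls, and both animals of litter 9_16 lay below the control median.

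The call did not hold with the litter taken into account. Adjusted p was 0.30 with the litter as a random effect, 0.44 with counts summed per litter and 0.19 in batch 2 alone, with estimates of 0.29, 0.42 and 0.36. Without litter 9_6 the estimate was 0.19 (FDR = 0.59) and without 9_11 it was 0.24 (FDR = 0.28), whereas without 9_16 it was 0.45 (FDR = 0.010).

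Some slices of CRMP1+CRMP2 also differed in content. The marker calls below are to be set against the 11.4% of all genes called in this comparison. All 4 pineal markers were called higher than in controls (summed 2.65 to 229 CPM against 1.67 to 6.18), with 229 and 63.4 CPM in 2 of the 8 libraries and 2.65 to 6.42 CPM in the other 6. All 4 choroid plexus markers were higher too (172 to 3205 CPM against 1.56 to 2756), although the 12 controls of the same batch had 123 to 2756 CPM, and 2 of 4 markers of oligodendrocyte precursors were lower (324 to 425 CPM against 317 to 465). None of 4 Cajal-Retzius markers was called (13.7 to 117 CPM against 7.08 to 94.2, and 23.6 to 94.2 in the 12 controls of the same batch). Without the 11 libraries of the series that held over 10 CPM of pineal or hindbrain markers, reelin differed by 0.20 ± 0.13 (FDR = 0.57). That fit kept 27 of the 32 animals. It lacked both exposed animals of litter 9_11, the one with 482 CPM of reelin in 9_6 and the one with 259 CPM in 9_1. Of 12590 genes 1 was called in it, so slice content and the loss of these animals cannot be told apart there.

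Of the 44 tested genes of the 7 lists, 5 (11.4%) were called in CRMP1+CRMP2, the same share as among all genes. Dab1, the adaptor of the reelin receptors, was higher (0.29 ± 0.068, FDR = 0.016), between 72.7 and 126 CPM against 63.9 and 117 in controls. The kinase Fyn was lower (-0.098 ± 0.034, FDR = 0.083). The protease Adamts1 was higher (0.77 ± 0.24, FDR = 0.061). It was at 0.20 ± 0.24 (FDR = 0.77) without the libraries with pineal or hindbrain RNA, a fit that lacks the same exposed animals as that of reelin. The proteoglycan Cspg5 (-0.31 ± 0.087, FDR = 0.035) and the polymerase subunit Chpf (-0.18 ± 0.065, FDR = 0.087) were lower. With the litter as a random effect none of the 5 was called, with adjusted p between 0.11 (Cspg5) and 0.30 (Adamts1). The other 7 tested members had log2 fold changes between -0.47 (Hapln1, SE 0.25) and 0.21 (Tnc, SE 0.12).

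No tested member was called in the other 3 patterns. In STIP1+NSE, reelin had a log2 fold change of 0.30 ± 0.11, close in size to that in CRMP1+CRMP2, with an unadjusted p of 0.0099 and FDR = 1.00, where 0.0474% of 12660 genes were called and 3.19% had an unadjusted p under 0.05. Its 8 animals were between 234 and 443 CPM with a median of 327. Litter means ran from 242 CPM in 9_2 to 438 in 9_7, and leaving out 1 litter moved the estimate between 0.16 and 0.44. Of 4 pineal markers, 2 were called higher than in controls in this pattern as well. In CRMP1+GDA, where no gene of 12641 was called (3.65% had an unadjusted p under 0.05), the lowest estimate was Hapln4 (-0.52 ± 0.32) and the smallest p reelin (0.27 ± 0.15, p = 0.096). Reelin there was between 208 and 554 CPM in 6 animals, and without litter 9_8 the estimate was -0.22.

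In LDHA/B+CRMP1+STIP1, the pattern with animals in both batches, 0.0157% of 12700 genes were called and 7.17% had an unadjusted p under 0.05. Brevican had the smallest p (-0.09 ± 0.044, p = 0.045, FDR = 0.68) and Hapln1 the lowest estimate (-0.28 ± 0.16, FDR = 0.75). Brevican was between 202 and 322 CPM in the 25 exposed and between 202 and 321 CPM in the 24 controls. Whether the response differed between batches was tested as an interaction, and none of the 8 passed (0.11% of 12700 genes did) and none had an unadjusted p under 0.05 (3.05% of genes did). The largest estimate was Hapln1 (0.32 ± 0.29, FDR = 1.00).

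None of the 8 genes was called among the 4 patterns, compared with each other within batch 2 in 31 animals (edgeR F-test, lowest adjusted p 0.82, and no unadjusted p under 0.05). Of 12698 genes none was called and 4.94% had an unadjusted p under 0.05. Between males and females none of the 8 was called either, with 0.0641% of 12477 genes called and 4.69% at an unadjusted p under 0.05. The largest estimate was Hapln4 (0.24 ± 0.21, male minus female, FDR = 0.99). In each of these comparisons with no call, DESeq2 and limma with the litter as a random effect called none of the 8 as well.

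**Figure D4:**
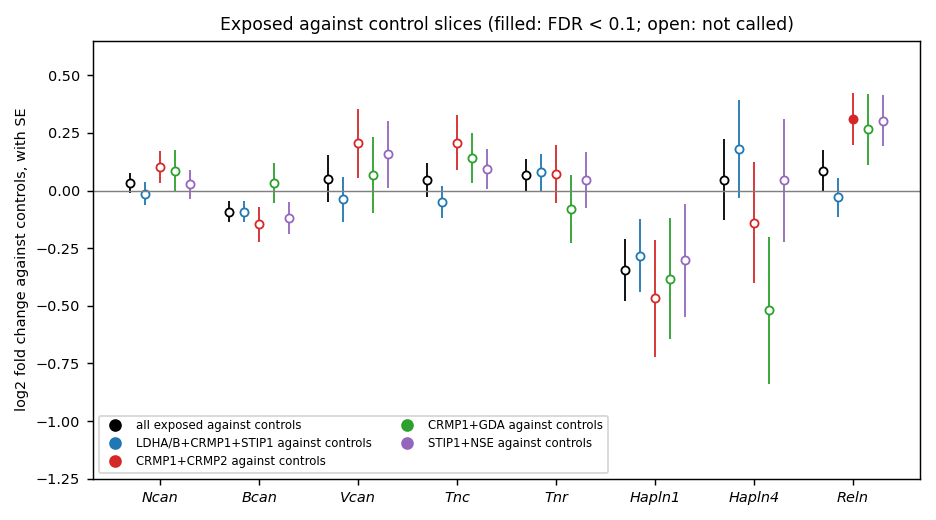
Log2 fold change against the controls (points, with SE bars) of the 8 tested genes for all exposed animals and for each of the 4 patterns; the one filled point, Reln in CRMP1+CRMP2 at 0.31, passed FDR < 0.1. The comparisons share their 24 controls, so points of one gene are not independent.

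Across litters the 5 genes with the longest exons rose and fell together. Litter means of log2 CPM, centred within batch, were correlated over the 27 litters for all 28 pairs of tested members (permutation test within batch, two-sided, adjusted over the 28). Adjusted p was under 0.05 for 13 pairs, 11 of them positive. All 10 pairs among Ncan, Vcan, Tnc, Tnr and Reln were among the 11, with Pearson's r between 0.55 and 0.95. In the 7 litters of batch 1 their r ranged from 0.10 (Ncan and Vcan) to 0.89 (Ncan and Tnr).

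Versican and reelin were closest (r = 0.95, rho = 0.94, permutation p = 1e-05 for each, the smallest these permutations can give, adjusted p = 7e-05). Their r was 0.94 without the 2 litters farthest from the median, 0.82 in the 7 litters of batch 1 and 0.96 in the 20 litters of batch 2. Tenascin-C and neurocan, which bind each other in the matrix, had r = 0.86 and rho = 0.84 (permutation p = 1e-05 for each, adjusted p = 7e-05), with r = 0.81 without the 2 farthest litters, 0.69 in batch 1 and 0.89 in batch 2.

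The eleventh positive pair was brevican and Hapln1 (r = 0.67, rho = 0.67, permutation p = 0.00024 and 0.00026, adjusted p = 0.0011 and 0.0012), at 0.65 without the 2 farthest litters, 0.79 in batch 1 and 0.65 in batch 2. Of the pairs of neighbours on a chromosome, 2 had both genes tested and neither passed with a positive r, which was -0.05 for Ncan and Hapln4 (rho = 0.07, permutation p = 0.82 and 0.73) and -0.47 for Vcan and Hapln1 (rho = -0.44, permutation p = 0.016 and 0.026, adjusted p = 0.037 and 0.056). The latter was -0.31 without the 2 farthest litters, so that it rests in part on them, -0.11 in batch 1 and -0.53 in batch 2. The other negative pair was Bcan and Tnr (r = -0.47, rho = -0.47, permutation p = 0.017 and 0.016, adjusted p = 0.037 for each), at -0.37 without the 2 farthest litters, -0.21 in batch 1 and -0.53 in batch 2.

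The exons of these 5 sum to 5201 bases or more and those of the other 3 tested members to 3840 or fewer. An index of long against short transcripts was formed for each library, as the median deviation of log2 CPM of the 10% of genes with the longest exon sequence (4850 bases or more) minus that of the 10% with the shortest (1049 bases or fewer), with the members left out. Its range over the 71 libraries was -0.46 to 0.50, and 0 is the average library. Over the 27 litters it was correlated with Vcan (r = 0.94, rho = 0.94), Reln (0.91, 0.90), Tnc (0.89, 0.86), Ncan (0.77, 0.77) and Tnr (0.75, 0.75), with permutation p between 1e-05 and 4e-05. Without the 2 litters farthest from the median of the index these r were 0.92, 0.89, 0.85, 0.74 and 0.71, and in batch 1 they were 0.85, 0.62, 0.73, 0.50 and 0.76.

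For the 3 shorter tested members the index had r = -0.37 (Bcan), -0.45 (Hapln1) and 0.03 (Hapln4), with adjusted p of 0.17, 0.070 and 0.95 in permutation tests. With the index regressed out of the litter means, the 10 pairs of the longer genes had r between -0.56 and 0.67 with a median of 0.029, against a median of 0.67 before. Versican and reelin kept 0.67 and neurocan and tenascin-C 0.59, whereas versican and tenascin-R went to -0.56. Brevican and Hapln1 were at 0.61. The index, like the members, comes from these libraries and shares their depth, and whether it reflects the RNA, the library or the tissue was not tested.

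**Figure D5:**
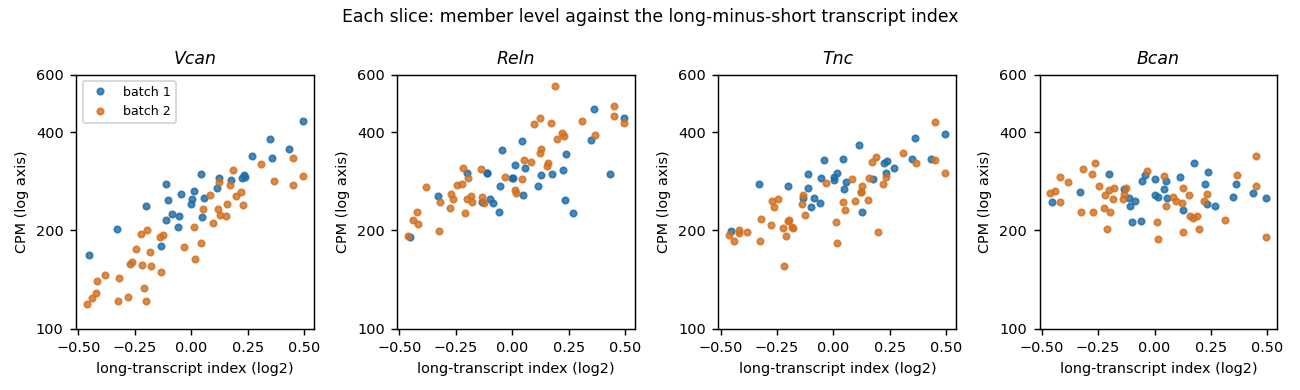
CPM (log axis) of Vcan, Reln, Tnc and Bcan in each of the 71 slices against the long-transcript index of its library (log2 units), coloured by batch. Vcan, Reln and Tnc rise with the index in both batches and Bcan does not.

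The reelin call in CRMP1+CRMP2 was lost with this index in the fit, and the index itself differed between the groups. Its mean was 0.16 in the 8 exposed animals, -0.030 in all 24 controls and -0.079 in the 12 controls of batch 2. Mean index per litter was 0.47 in litter 9_6 and 0.27 in 9_11, where reelin was highest, 0.072 in 9_1 and -0.16 in 9_16, where it was lowest. With the index as a covariate the log2 fold change of reelin was 0.074 (FDR = 0.67). Index and exposure overlap in this comparison, so their parts in the reelin difference cannot be told apart. In STIP1+NSE too, reelin was highest in litter 9_7 (mean index 0.22) and lowest in 9_2 (-0.24). In the batch contrast of controls with the index as a covariate, the log2 fold changes of Tnc, Tnr, Vcan and Hapln1 were -0.33, -0.44, -0.37 and -0.80. That of Hapln4 was 1.59, and all 5 had FDR between 2.1e-05 and 0.0018.

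Litter levels were further set against the summed markers of 7 cell types and regions (64 relations in all with the index, permutation p-values adjusted over the 64, of which 17 passed 0.05 and 13 of these were positive). Brevican, made by astrocytes and oligodendrocyte precursors, went with markers of radial glia and astrocytes (r = 0.78, rho = 0.81, permutation p = 2e-05 and 1e-05, adjusted p = 0.00026 and 0.00013), at 0.81 without the 2 farthest litters, 0.88 in batch 1 and 0.75 in batch 2. Tenascin-R went against them (r = -0.74, rho = -0.76, permutation p = 3e-05 and 1e-05, adjusted p = 0.00027 and 0.00013), at -0.70 without the 2 farthest litters, -0.56 in batch 1 and -0.78 in batch 2. Hapln1 went with them (r = 0.58, rho = 0.66, permutation p = 0.0021 and 0.00029, adjusted p = 0.013 and 0.0023), at 0.67 without the 2 farthest litters, 0.94 in batch 1 and 0.50 in batch 2.

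Hapln4 went against the markers of cortical and hippocampal neurons (r = -0.63, rho = -0.56, permutation p = 0.00063 and 0.0031, adjusted p = 0.0050 and 0.022), at -0.55 without the 2 farthest litters, -0.82 in batch 1 and -0.60 in batch 2. Brevican went against them as well (r = -0.59, rho = -0.55, permutation p = 0.0012 and 0.0044, adjusted p = 0.0085 and 0.026), at -0.50 without the 2 farthest litters, -0.55 in batch 1 and -0.60 in batch 2. With thalamus markers Hapln4 had r = 0.56 and rho = 0.45 (permutation p = 0.0029 and 0.018, adjusted p = 0.017 and 0.089). That r was 0.23 without the 2 litters farthest from the median, so the relation rests on those litters. Reelin and Cajal-Retzius markers had r = 0.57 and rho = 0.45 (permutation p = 0.0046 and 0.027, adjusted p = 0.025 and 0.12), at 0.37 without the 2 farthest litters, -0.09 in batch 1 and 0.62 in batch 2. The other 5 relations that passed had adjusted permutation p between 0.045 and 0.049.

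The genes whose levels were most like those of each member over the 71 libraries, after the mean of each group and batch was removed, are given as a description. Brevican was most like Aqp4, the water channel of astrocytes (r = 0.86), and Hapln1 most like Mlc1, a membrane protein of astrocytes (r = 0.73), and Aqp4 (r = 0.69). Versican was most like Prrc2c (r = 0.95) and Tpr (r = 0.94), reelin like Fat1 (r = 0.88) and Lrp1 (r = 0.88), and tenascin-C like Notch1 (r = 0.84) and the proliferation marker Mki67 (r = 0.81). Neurocan was most like Tnc (r = 0.76), and tenascin-R like the kinesin Kif21b (r = 0.89) and Tulp4 (r = 0.86). The genes named here as most like these 5 had exon sequences between 4641 (Tulp4) and 14744 bases (Fat1). Those named for brevican and Hapln1 had 5116 (Aqp4) and 2777 bases (Mlc1), so the lengths overlap. Hapln4 was most like Vwa5b1 (r = 0.74) and Ptprn, a protein of secretory granules (r = 0.72). Hapln2, with few counts, reached r = 0.52 at most (Ctdspl), which is weak. The libraries share litters and depth.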

How the data were processed

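The deposited table held counts per gene and library that the authors made by aligning poly-A RNA-seq reads to rat build rn7 with STAR 2.5.4b and counting with featureCounts (version and options not given in the sources used here), beside each gene's exon length in bases. Of the low counts (1 to 9), 74.5% were even. Exposure, litter and sex came from the labels and batch from the title series, and 0 sample columns stayed unassigned.

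Genes were tested with edgeR 4.0.16 in R 4.3.3 (TMM, robust quasi-likelihood test, Benjamini-Hochberg adjustment over all genes tested, called at FDR < 0.1), over genes with at least 1 CPM in 8 libraries (general and sex contrasts) or over 1 CPM in 2. Exposure fits held 1 surrogate variable (sva 3.50.0), batch, interaction and between-pattern fits sex, and the sex fit group and batch. Each pattern was set against all 24 controls. FDR is the adjusted p of edgeR, and ± is an SE. Alternatives used DESeq2 1.42.0 and limma 3.58.1 (voom, litter as a random effect), among others. Correlations used log2 CPM (prior count 2) and 100000 permutations. The scripts were tested on simulated data. Named genes were all members, up to 4 called genes a list by smallest p, otherwise 1 or 2 of a list, and the 2 genes most like each member, of which 1 is not reported here. Adamts9, Timp3 and Hapln3 were named after their values were seen. The members, lists and tests were chosen with earlier results of these data known. The long-transcript index and the omission of libraries with pineal or hindbrain RNA were chosen after seeing the data.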

Additional observations from a re-analysis of the deposited data

Results flagged for a closer look

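One value stood apart from the rest of its group. Among the 8 STIP1+NSE animals, 1 animal of litter 9_7 had 345 CPM of Tnc, and the other 7 were between 208 and 262 CPM. The gap to the nearest animal was 0.606 of the group's range, above the critical value for 8 samples. The 9 genes were looked at in 3 groups, 27 in all, of which chance flags about 1 in 20, so 1 such value is not more than chance gives.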

How the results depend on the processing

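No paired analysis was possible because replicate numbers follow accession order and pair no animals across groups, so no replicate block was fitted. Members called in CRMP1+CRMP2 numbered 1, and 0 with no CPM filter, the litter as a random effect, counts summed per litter, batch and sex in place of the surrogate variable, sex added to it, batch 2 alone, the libraries with pineal or hindbrain RNA left out, or the long-transcript index added. Leaving out 1 litter gave 0 to 3 calls (0 without 9_6 or 9_11, 2 without 9_1, 3 without 9_16). In the batch contrast of controls 5 members were called, 3 with counts summed per litter. Cause was not tested in either case. Correlated pairs numbered 13, and 12 by Spearman's rho.

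Of 931 alternative values of single genes, 838 kept direction and side of the threshold, 70 lost a call, 7 gained one and 16 changed sign, none of them a called value. In the general contrast PC1 to PC7 gave -0.015 (Ncan), -0.019 (Vcan), -0.022 (Tnc) and -0.0070 (Reln), the long-transcript index -0.062 (Vcan), -0.026 (Tnc) and -0.0053 (Reln), and Hapln4 was -0.041 with the litter as a random effect and -0.0053 in batch 2 alone. In CRMP1+CRMP2 the index gave -0.0036 (Ncan), -0.14 (Vcan) and -0.17 (Tnr), and Hapln4 was 0.091 with the litter as a random effect, 0.085 with summed counts and, leaving out 1 litter, -0.34 to 0.024 (0.024 without 9_1). In CRMP1+GDA, reelin was at -0.22 to 0.44 leaving out 1 litter (-0.22 without 9_8). Depth limits Hapln2, which was not tested, and Hapln4, with 4 counts in its lowest library.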
